A study of Drosophila melanogaster with 3 samples.

Results

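Drosophila melanogaster carries 5 histone variant genes that were examined here for binding of the protein CG10431: His2Av, His3.3A, His3.3B, His4r and BigH1. They were taken by their symbols in the Ensembl annotation of the fly genome, as 5 of 13986 protein-coding genes, and all 5 lie outside the tandem repeat that holds the replication-dependent histone genes. Binding had been mapped by chromatin immunoprecipitation and sequencing (ChIP-seq) in whole embryos aged 0 to 12 h, males and females together. The embryos came from 1 transgenic line that stably expresses CG10431 with green fluorescent protein (GFP) fused to the C terminus, and the antibody field of the labels names CG10431. There were 3 biological replicates of 1 group and no second condition, so each value below is a description and no test was made. All 3 replicates share the line and the stage, whole embryos mix cell types, and the labels do not say which promoter drives the fusion. No transcript was measured, so the labelled stage could not be set against marker genes.

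Histones package DNA into nucleosomes, and most of them are made in S phase from the repeated genes. Variant histones come from genes outside that repeat, and they can be placed into chromatin outside S phase. H3.3 marks transcribed chromatin and is known in the fly for its deposition on the paternal genome after fertilisation. H2Av, the only H2A variant of the fly, combines the roles that H2A.Z and H2A.X have in mammals, in transcription and in the response to DNA damage. His4r encodes a replacement copy of H4 whose protein equals that of the repeat, and BigH1 encodes the large linker histone of the early embryo, which somatic H1 replaces when zygotic transcription begins.

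Of the 5 genes, 4 had a reproducible CG10431-GFP peak within 1 kb of a transcript start: His2Av, His3.3A, His3.3B and His4r, with 1 peak each. BigH1 had none. Kept only where both remaining replicates held the peak among their strongest entries, the count was 2 (His3.3A and His4r) without replicate 2 and the same 2 without replicate 3, and 4 without replicate 1. The share of all protein-coding genes under these filters was 11.8% without replicate 2, 12.6% without replicate 3 and 12.7% without replicate 1. Reproducible peaks are the 3314 entries of the pooled replicates that the authors retained by an irreproducible discovery rate (IDR) analysis, and a peak was credited to a gene by its summit. They are also the 3314 strongest of the pooled entries, so the call does not say that each replicate placed a peak as high. Replicate 1 ranked the His2Av and His3.3B entries 4196 and 3800, below its own 3314 strongest. An IDR summit within 1 kb of a start was found for 2419 protein-coding genes, which is 17.3% (exact binomial 95% interval from 16.7 to 17.9%, counting error only). In the pooled list of 30000 candidate entries, which holds peaks and background, the same 4 genes had a summit within 1 kb of a start and BigH1 again had none, against 52.5% of protein-coding genes. Among the protein-coding genes with such a candidate, 32.9% also had an IDR summit, and so did 4 of the 4 members with a candidate. The gene set is small, and nothing particular to it was tested.

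The stretches printed below lie within the intervals of the peaks. Only the His3.3B stretch and the His4r site in the 5′ UTR contain the summit of their peak. The stretches were picked by different rules, so they do not show how the bound sites differ from one another. For the bound members with a head-to-head neighbour, the stretch between both transcript starts is shown, and for His3.3B the intron around the summit. Where a summit lay in the member's own 5′ untranslated region (UTR), only 30 bases centred on the word GGTCAC near it are shown. These sites thus hold that word by selection. All are from the RefSeq copy of the assembly of build dm6, on the plus strand, 5′ to 3′. Capitals mark matches, on either strand, to the 9 short words that were searched.
His2Av, chr3R:26866808-26866928, between the starts of ball and His2Av: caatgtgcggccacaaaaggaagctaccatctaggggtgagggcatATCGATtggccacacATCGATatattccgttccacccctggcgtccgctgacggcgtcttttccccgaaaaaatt
His3.3A, chr2L:5055017-5055057, between the starts of CG14036 and His3.3A: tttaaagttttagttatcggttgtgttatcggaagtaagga
His3.3A, chr2L:5055120-5055149, site in the 5′ UTR: cgatgaatatagGGTCACactgagcagacg
His3.3B, chrX:9155171-9155371, intron around the summit: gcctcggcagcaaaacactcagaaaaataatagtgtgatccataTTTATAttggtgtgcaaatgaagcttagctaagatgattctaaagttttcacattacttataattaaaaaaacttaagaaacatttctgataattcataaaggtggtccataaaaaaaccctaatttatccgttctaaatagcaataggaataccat
His4r, chr3R:14625704-14625754, between the starts of put and His4r: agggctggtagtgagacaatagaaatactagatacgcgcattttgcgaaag
His4r, chr3R:14625766-14625795, site in the 5′ UTR: tgtgcgagatctGGTCACgctcacaagcaa

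His4r carried the strongest of the 4 peaks. The gene (FBgn0013981) lies at chr3R:14625755-14626614 on the plus strand, is 860 bp long and has 4 transcripts from 2 starts, at 14625755 and 14625788. Its IDR peak spanned chr3R:14625572-14625995, with the summit at 14625784, in the 5′ UTR, 4 bp upstream of the start at 14625788 and 29 bp downstream of the 5′ end of the gene. The signal of an entry is the authors' own value, on a scale that neither labels nor files state, so it is read only by its rank within a list, where rank 1 is the strongest entry. In the pooled list the His4r peak had a signal of 371 and rank 963. In replicate 1 the strongest entry within 1 kb of a His4r start had signal 104 and rank 1241, in replicate 2 signal 166 and rank 854, and in replicate 3 signal 118 and rank 915. The mean rank was 1003 ± 208 (SD, n = 3), or 3.34 ± 0.694% from the top of a list of 30000. All 3 replicates placed His4r above every other member. The replicate summits lay 7 bp to the right, 54 bp to the left and 13 bp to the right of the pooled summit.

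Of the H3.3 genes, which encode the same protein, His3.3A was bound at its promoter. The gene (FBgn0014857) lies at chr2L:5055058-5056149 on the plus strand, is 1092 bp long and has 3 transcripts from starts at 5055058 and 5055134. Its IDR peak spanned chr2L:5054902-5055325, with the summit at 5055114, in the 5′ UTR, 20 bp upstream of the start at 5055134 and 56 bp downstream of the 5′ end. The peak had a pooled signal of 253 and rank 1963. The ranks in replicates 1, 2 and 3 were 2577, 1889 and 2037, with signals of 68.1, 110.1 and 81.0. These gave a mean of 2168 ± 362 (SD, n = 3), the smallest spread relative to its mean among the 4 bound genes, and no replicate summit lay more than 40 bp from the pooled one. Past the promoter the gene held no further pooled entry, and each replicate had 1 weak entry in the 3′ UTR, at ranks 22909, 25052 and 20080.

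His3.3B was bound inside the gene, not at its 5′ end. The gene (FBgn0004828) lies at chrX:9152523-9156669 on the minus strand, is 4147 bp long, the longest of the 5, and has 4 transcripts from starts at 9156669, 9155613 and 9155012. Its IDR peak spanned chrX:9155059-9155482, with the summit at 9155271 in an intron, 259 bp upstream of the innermost start and 1398 bp downstream of the 5′ end. The pooled signal was 206 and the rank 2814. The replicates ranked the entry 3800, 3025 and 2325, with signals of 53.6, 85.9 and 76.3 and a mean rank of 3050.0 ± 738 (SD, n = 3). It was thus the weakest of the 4 in the pooled list, although its replicate ranks overlapped those of His2Av. No start of another gene lay within 1 kb of this summit.

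The other His3.3B starts carried weaker pooled entries that were not among the IDR peaks. An entry 46 bp downstream of the outermost start, in the 5′ UTR, had signal 151 and rank 4775. In replicates 1, 2 and 3 the nearest entries to that start lay 61, 10 and 30 bp downstream, at ranks 8750, 5012 and 7521. Replicate 3 alone had a stronger entry there, in the intron 231 bp downstream, at rank 3234. The middle start carried an entry 141 bp downstream, with signal 139 and rank 5502, and ranks of 12898, 11963 and 4524 for the replicate entries 145, 104 and 161 bp downstream. The bound intron site therefore ranked above both other starts in every replicate. The interval of the pooled entry at the middle start, chrX:9155260-9155683, overlaps that of the IDR peak, so this entry need not be a separate site. The 3′ UTR held 3 further pooled entries, at ranks 7226, 15131 and 17308, so that His3.3B held 6 of the 11 pooled entries found within 1 kb of a start or in the body of the 5 genes. The interval of the entry at rank 7226 overlaps that of an IDR peak at rank 2784, whose summit lies beyond the 3′ end of the gene. The intervals of the entries at ranks 15131 and 17308 overlap too, so these are counts of entries and not of separate sites.

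His2Av, which encodes the H2A variant, was bound just outside the gene. The gene (FBgn0001197) lies at chr3R:26866929-26869220 on the plus strand, is 2292 bp long and has 2 transcripts from 1 start. Its IDR peak spanned chr3R:26866589-26867012, with the summit at 26866801, 128 bp upstream of the start. That position is 6 bp downstream of the start of the neighbouring gene ball, which encodes a histone kinase, and lies in the 5′ UTR of ball. The pooled signal was 249.7 and the rank 2010. Replicates 1, 2 and 3 ranked it 4196, 1891 and 1618, with signals of 50.4, 110.0 and 90.1, and the mean rank was 2568 ± 1416 (SD, n = 3). Replicate 1 placed it lower than the other replicates did, as it did each of the 4 bound genes. The spread for His2Av was the widest of the 4. The summits of the replicates lay within 34 bp of the pooled summit all the same. Inside the gene, 2 weaker pooled entries were found, in a coding exon 555 bp downstream of the start (signal 72.2, rank 15737) and in the 3′ UTR (signal 66.7, rank 17839).

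BigH1, the linker histone gene, had no entry within 1 kb of its start or in its body in the IDR list, in the pooled list or in replicates 2 and 3. The gene (FBgn0038252) lies at chr3R:14663450-14664822 on the plus strand, is 1373 bp long and has 1 transcript. Replicate 1 alone had 2 entries. The first lay 860 bp upstream of the start, in a coding exon of another gene, with signal 15.9 and rank 28582 of 30000, and the other lay 1251 bp downstream, in the coding exon of BigH1, with signal 30.4 and rank 9836. The nearest pooled candidate lay 3788 bp from the start, and 31.4% of protein-coding genes were at least as far from one (median 716.5 bp). The nearest IDR summit lay 8094 bp away, and 56.6% of protein-coding genes were at least as far (median 10935 bp). A deposited list ends at its entry 30000, so weaker signal at BigH1 was not detectable in these lists, and the number of reads behind them is unknown.

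**Figure D1:**
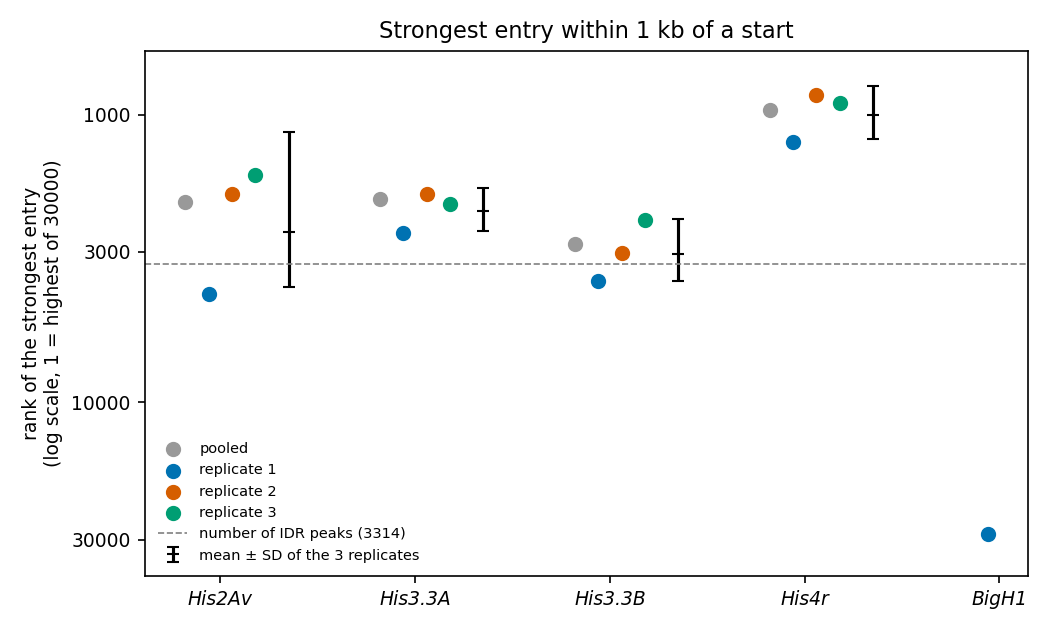
Rank of the strongest entry within 1 kb of a start for each gene (y axis, log scale, 1 the strongest of 30000), in the pooled list and the 3 replicate lists, with bars for the mean ± SD of 3 replicates and a dashed line at rank 3314, the number of IDR peaks. His4r sits between ranks 854 and 1241, above the other genes, while the points of His2Av, His3.3A and His3.3B overlap between ranks 1618 and 4196, and BigH1 has a single point at rank 28582 in replicate 1.

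The replicates held most of the order of the 4 bound genes. In the plot of ranks by replicate, the least strong His4r entry, at rank 1241, was above the strongest entry of any other member, at rank 1618. The replicate ranks of His3.3A (1889 to 2577), His2Av (1618 to 4196) and His3.3B (2325 to 3800) overlapped as ranges. Taken list by list, His3.3A ranked above His3.3B in 3 of 3 replicates and in the pooled list, while the place of His2Av changed between replicates, below both in replicate 1 and above both in replicate 3. His2Av and its neighbours in the order thus did not differ beyond their spread. Set among the 2419 protein-coding genes with an IDR summit, ordered by the signal of their strongest one, His4r was at place 782, or 32.3% from the top. His3.3A was at place 1517 (62.7% from the top), His2Av at 1559 (64.4%) and His3.3B at 2090 (86.4%). His4r was thus the only member above the median signal of these genes, which was 289.

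The 3314 strongest entries of each replicate, as many as there are IDR peaks, gave a view of recurrence. Replicate 1 placed such an entry within 1 kb of a start of 2 members, His3.3A and His4r, against 17% of protein-coding genes. Replicate 2 did so for 4 members (17.5% of protein-coding genes) and replicate 3 for the same 4 (17.8%). The IDR peaks of His3.3A and His4r were found in 3 of 3 replicates, with a summit within 250 bp among those entries, and those of His2Av and His3.3B in 2 of 3. Over the whole IDR list, 61.2% of peaks were found in all 3. The IDR list was called from these replicates, so recurrence in them is a description of the calls.

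**Figure D2:**
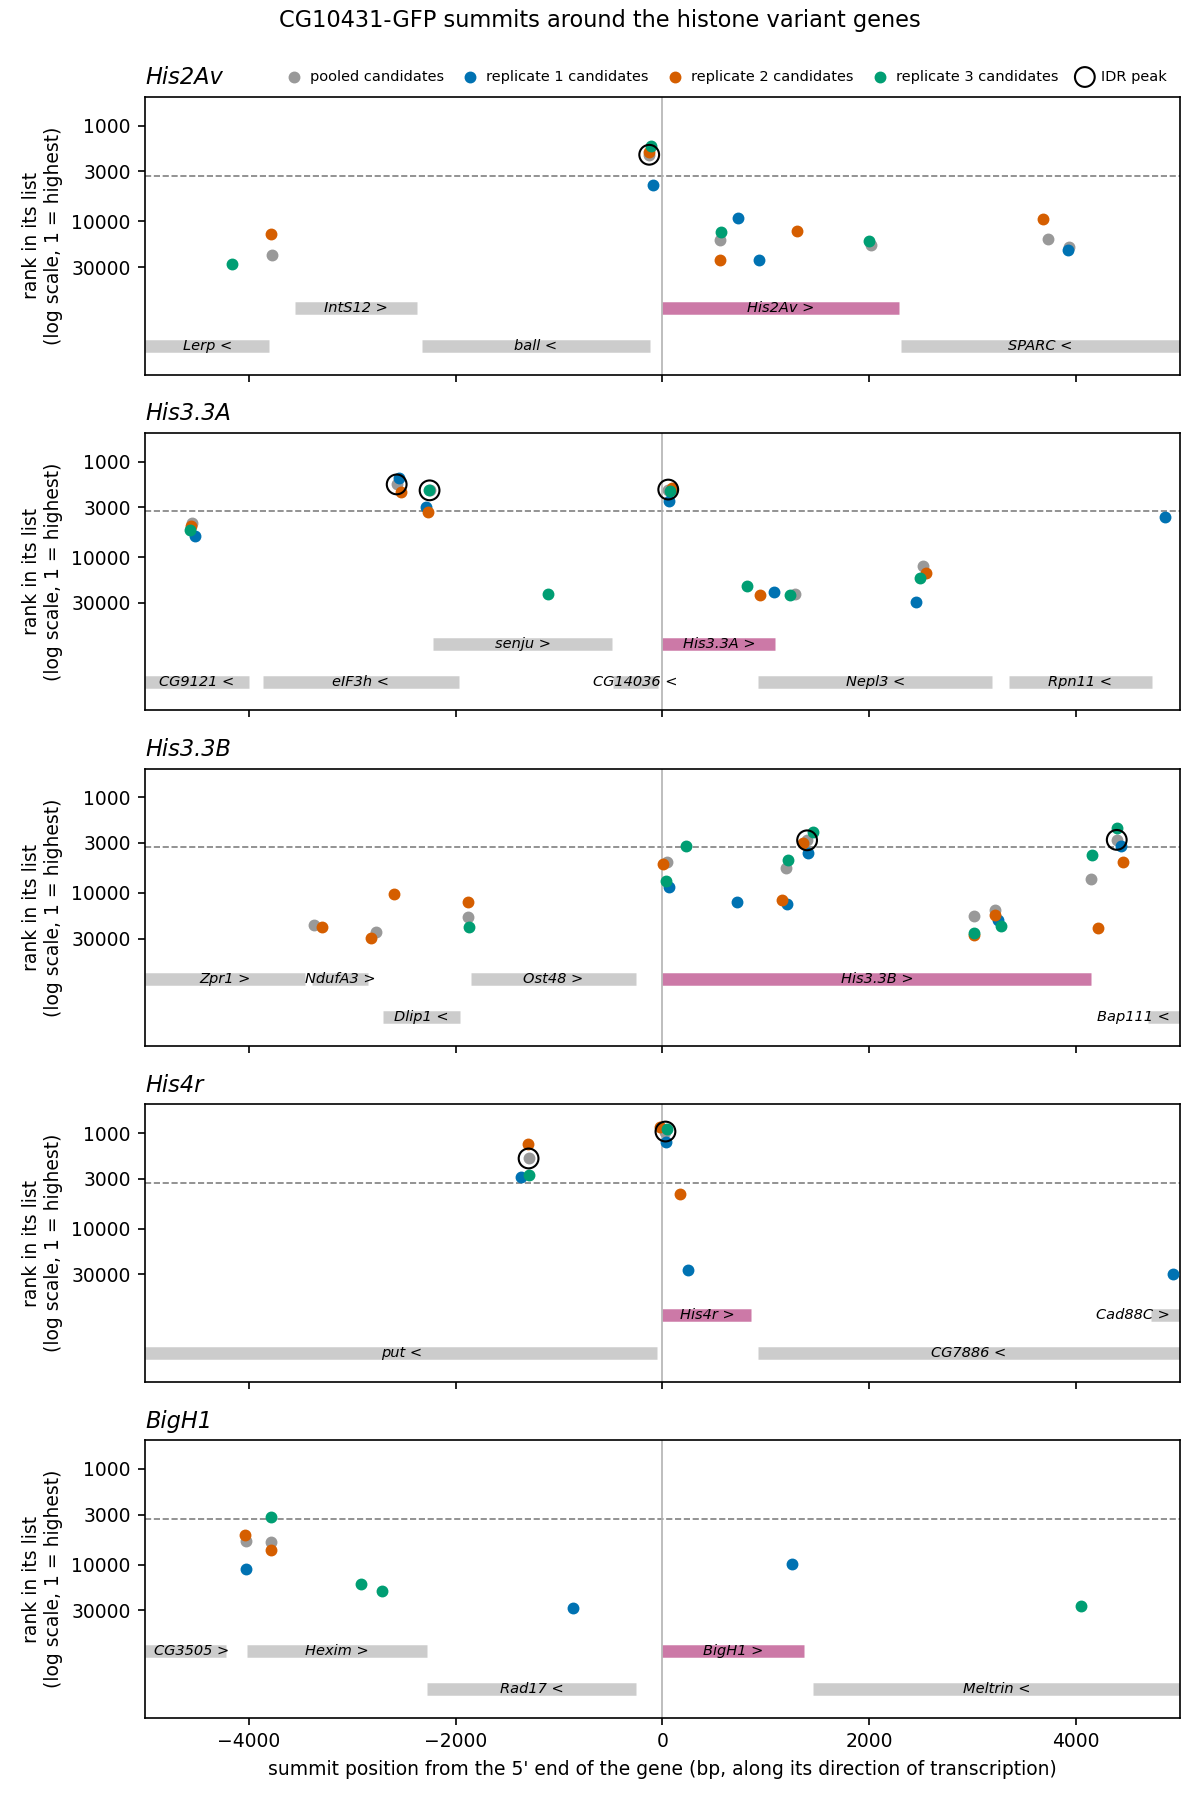
Summits around the 5 genes, plotted by position from the 5′ end of the gene along its direction of transcription (x axis, bp) and by rank in their own list (y axis, log scale), with genes drawn as bars below, members in pink and neighbours in grey, arrowheads giving the direction of transcription. Open circles are IDR peaks and the dashed line is rank 3314. Circles stand at the 5′ ends of His2Av, His3.3A and His4r, inside and just beyond His3.3B and upstream of His3.3A and His4r, and the BigH1 map has none.

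A shared promoter was the commonest setting of these genes, as the maps of the loci show. Of the 5 members, 4 had a protein-coding neighbour that starts head to head within 500 bp, against 27.3% of protein-coding genes. His3.3A and CG14036 start 42 bp apart, His4r and put 52 bp apart, His2Av and ball 122 bp apart, and BigH1 and Rad17 253 bp apart. The gene put encodes a type II receptor of the BMP and activin pathways, and Rad17 a loader of the DNA damage checkpoint clamp. His3.3B had no such neighbour.

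At the shared promoters a single peak could belong to either gene. The His4r summit lay 81 bp upstream of the put start, the His3.3A summit 98 bp upstream of the CG14036 start and the His2Av summit 6 bp downstream of the ball start. The start of ball was nearer to its summit than the start of His2Av, while His3.3A and His4r were nearer to theirs than their neighbours were. ChIP-seq does not tell which of the genes a site serves. Of the head-to-head protein-coding genes, 30.2% had an IDR summit within 1 kb of a start, and of the others 12.5%. A summit at a shared promoter counts for both genes, and the part of this in the difference was not tested. Among the members, 3 of the 4 head-to-head genes had one, and so did His3.3B.

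**Figure D3:**
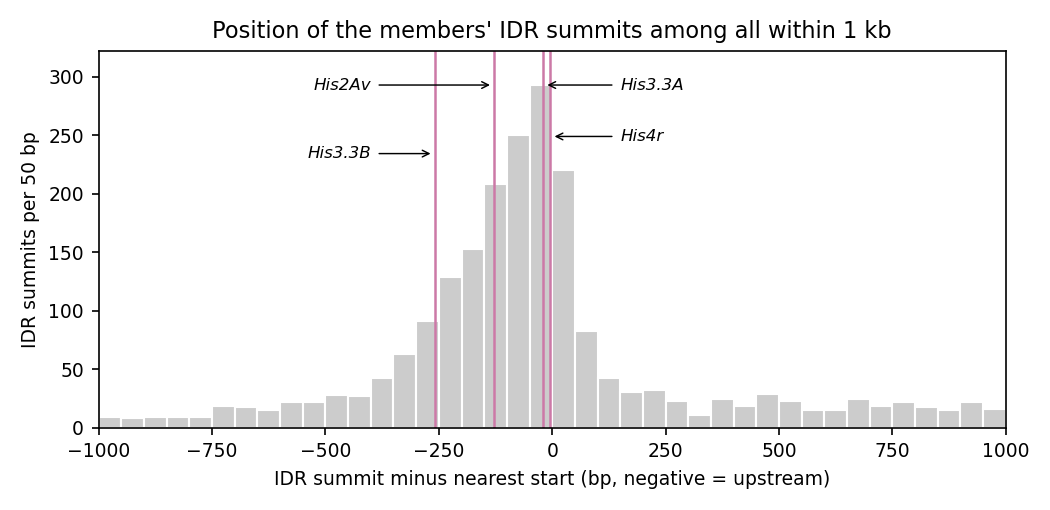
Number of IDR summits per 50 bp (y axis) by distance from the nearest transcript start (x axis, bp, negative upstream), for all IDR summits within 1 kb of a start, with lines at the 4 member summits measured from the members' own starts. The summits of His4r and His3.3A fall in the tallest bin, that of His2Av and that of His3.3B lie 128 and 259 bp upstream, on the left shoulder.

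All 4 member summits of the pooled list lay upstream of the nearest start of their gene, by 4 to 259 bp. In the replicates this side held for His2Av and His3.3B only. The His4r summit lay 3 and 9 bp downstream of its nearest start in replicates 1 and 3, and the His3.3A summit 20 bp downstream in replicate 2. In the plot of positions around starts, the upstream side is the one on which IDR summits were most frequent across the genome. Measured from the 5′ end of the gene in place of the nearest start, the summits of His3.3A, His3.3B and His4r came to lie 56, 1398 and 29 bp downstream, because these genes have inner starts.

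Further IDR peaks stood near 3 members without meeting the 1 kb rule. The His4r locus had one with its summit at chr3R:14624461, in an intron of put, 1294 bp from the nearest His4r start, with signal 264 and rank 1841, and with replicate ranks of 2855, 1303 and 2734. His3.3B had one with its summit at chrX:9152278, in intergenic sequence 245 bp beyond the 3′ end, with signal 207 and rank 2784, and with replicate ranks of 3232, 4739 and 2072. On the far side of His3.3A, 2 IDR summits lay 2569 and 2251 bp before its 5′ end, the first in an intron, 291 bp downstream of a start of eIF3h, and the other 27 bp upstream of one. The gene eIF3h encodes a subunit of a translation initiation factor. They ranked 1734 and 2000, and the first had no entry within 250 bp in replicate 3. The flanking peaks of the 3 loci thus had ranks of the same order as the members' own.

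In sequence, none of the words searched stood at all 4 bound sites. The window of 201 bp centred on each summit was read on both strands for a set of short words. Among them were TATCGATA, which is the DNA replication-related element (DRE), and the TATA box, searched as TATAAA. The Initiator was searched as TCAGTT, an E-box as CAGCTG and the GAGA word as GAGAG, and CAGGTAG is the word of the activator Zelda. A further word, TACATGG, which earlier results of these data had brought forward, stood in 0 of the 4 windows, against 7.72% of the windows at all IDR summits and 2.54% at other pooled summits. The DRE (3.26% of IDR windows), the GAGA word (28%) and the Zelda word (0.935%) also stood in 0 of 4. Over all promoters of 300 bp, the shares were 1.92% for TACATGG, 9.36% for the DRE, 29.7% for the GAGA word and 1.64% for the Zelda word. TATAAA stood in the His3.3B window, 51 to 56 bases left of the summit on the minus strand, and in 32.5% of IDR windows and 45.8% of promoters. CAGCTG stood in the His3.3A window (11.1% of IDR windows, 17.7% of promoters) and TCAGTT in the His4r window (12.5% of IDR windows, 26.1% of promoters).

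Both members with a summit in their own 5′ UTR held GGTCAC there. This word, the core of a core promoter element of the fly known as Motif 1, was added after the sequences had been seen, as was ATCGAT, the core of the DRE, so their counts have no weight beyond description. GGTCAC lay 1 to 6 bases left of the His4r summit and 18 to 23 bases right of the His3.3A summit, close to the inner start of either gene. The sites printed above were cut around this word. It stood in 5.97% of IDR windows, 5% of windows at other pooled summits and 14.7% of all promoters of 300 bp. ATCGAT stood at 2 places between ball and His2Av, 53 to 58 and 68 to 73 bases right of the summit, and it overlaps TATCGATA. It was found in 8.93% of IDR windows, 7.05% of other windows and 23.3% of promoters. A match describes letters in a window and not the binding of a factor.

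The windows also differed in base composition. The His2Av window was 46.3% G and C, that of His4r 39.3%, that of His3.3A 38.8% and that of His3.3B 29.9%, beside a median of 37.8% at all IDR summits and 40.3% at the other pooled summits. The bound members thus lay on both sides of the median of the IDR summits, with His3.3B lowest.

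The histone variants differ in how far their proteins depart from those of the repeat. His3.3A and His3.3B encode identical proteins of 136 residues from coding sequences that differ at 57 of 408 bases (86.0% identical). Each H3.3 protein matched the most similar H3 of the histone repeat at 132 residues, a difference of 4 (97.1% identical). His4r encodes 103 residues identical to H4 of the repeat, from a coding sequence that differs at 50 of 309 bases. His2Av (141 residues) and the most similar repeat H2A (124 residues) were 56.0% identical over the longer protein, and BigH1 (353 residues) and the most similar repeat H1 (256 residues) 23.5%. The H3.3 genes and His4r are thus distinct in DNA from the repeat, and the gene bound most strongly encodes a protein that the repeat encodes too.

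**Figure D4:**
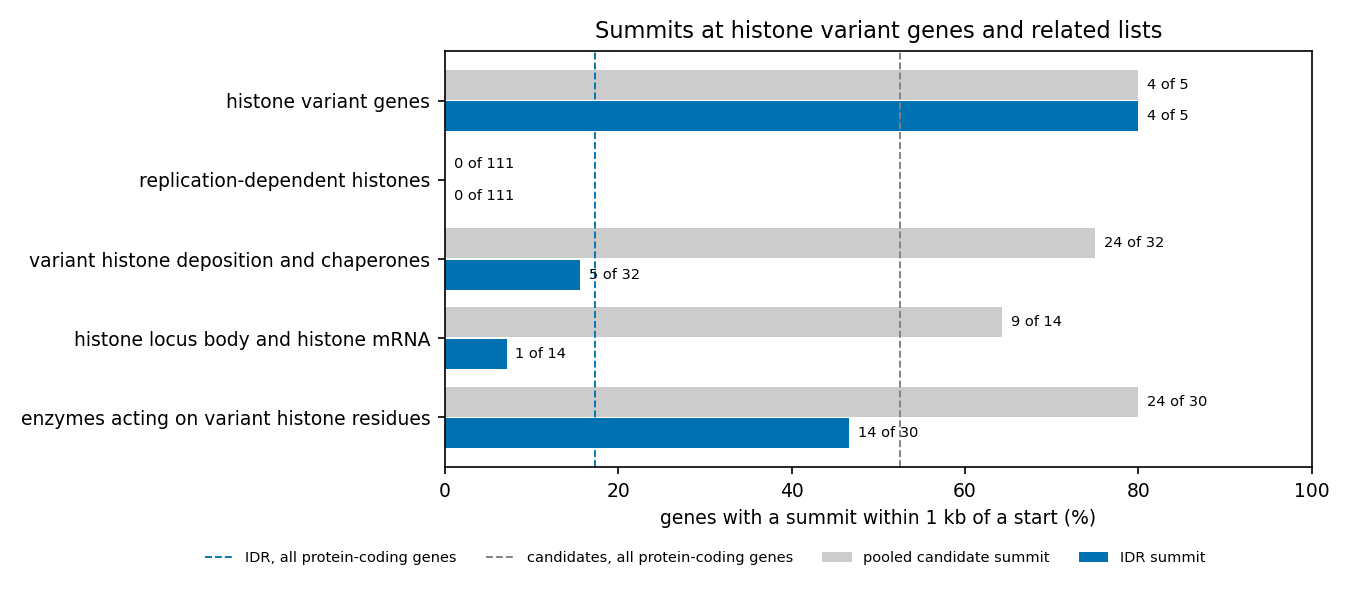
Share of genes (x axis, %) with a summit within 1 kb of a start, for the 5 histone variant genes and the related gene lists, with grey bars for the pooled candidates and blue bars for the IDR peaks and dashed lines for all protein-coding genes (52.5% and 17.3%). The replication-dependent histones are at 0 of 111 in both, while the list named for enzymes acting on variant histone residues reaches 14 of 30 for the IDR peaks.

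The replication-dependent counterparts of the variants had no pooled or IDR summit near their starts. Of 111 genes of the tandem repeat (His1, His2A, His2B, His3 and His4 copies), 0 had an IDR summit and 0 a pooled candidate within 1 kb of a start, in the comparison of gene lists. The copies are nearly identical to one another, the sources do not say how reads that map to several places were treated, and the part of this in the count was not tested. The repeat is 1 locus, so its 111 genes are not 111 separate sites. Among the core histone genes of these lists, IDR summits were called only at the 4 bound variant genes. Whether CG10431 binds the repeat cannot be told from these lists.

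In a list of genes for variant histone deposition and histone chaperones, the share bound was near that of all protein-coding genes. The list also holds general histone chaperones and cid, itself a gene for an H3 variant, which had no IDR summit. Of 32 genes, 24 had a pooled candidate within 1 kb of a start, against 52.5% of all protein-coding genes. Of these 24, 5 had an IDR summit, against 32.9% of the protein-coding genes with a candidate. IDR summits thus stood near 5 of 32 (15.6%), against the 17.3% of all protein-coding genes. The strongest belonged to dlp (signal 379, rank 930), which under its current symbol is dally-like, a glypican and not a histone chaperone. It entered the list because dlp was also an older symbol of Daxx, a gene for an H3.3 chaperone. Without it, 4 of 31 genes were bound (12.9%), and with Daxx in its place and with MrgBP added, 5 of 33 (15.2%), a change made after the data had been seen.

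Apart from dlp, the bound genes of the deposition and chaperone list were pont, asf1, Set, Tip60 and, in the corrected list, Daxx. The summit of pont, which encodes an ATPase of the complexes that exchange H2Av, lay 28 bp upstream of its start with signal 325 and rank 1229, and with replicate ranks of 1360, 1590 and 1093. Daxx had a summit 219 bp upstream, with signal 253 and rank 1961, close to that of His3.3A in the pooled list, and replicate ranks of 2797, 3034 and 1263. The summit of asf1, a chaperone of H3 and H4, lay 130 bp upstream with signal 224 and rank 2438. Set, a chaperone of the same family as Nap1, had rank 2836 through a peak that it shares with Su(var)3-9, and Tip60, the acetyltransferase of the H2Av exchange complex, rank 3162. Left to peaks found in both remaining replicates, the count of the uncorrected list fell from 5 to 3 without replicate 2 and to 3 without replicate 3. The share of all protein-coding genes fell as well, from 17.3% to 11.8% and 12.6%.

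Of 14 genes of the histone locus body and of histone mRNA processing, 1 had an IDR summit (7.14%), against the 17.3% of all protein-coding genes. This was Nelf-E, a subunit of the negative elongation factor, with a summit 130 bp upstream of its start, signal 804 and rank 201, and with replicate ranks of 226, 212 and 208. It was stronger than every histone variant gene in all lists. Counted by the nearest start only, 0 of the 14 genes had an IDR summit, against 12.4% of protein-coding genes.

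The list named for enzymes acting on variant histone residues had IDR summits at 14 of 30 genes (46.7%), against the 17.3% of all protein-coding genes. Its genes are not particular to the variants, because the His4r protein equals H4 of the repeat and H3.3 differs from H3 at 4 residues. The list also holds borr, which does not encode an enzyme. The list was chosen with earlier results of these data known, so the contrast is a description only. Among the strongest entries of replicates 1, 2 and 3 were those of 12, 13 and 13 genes. The strongest was Set8, the methyltransferase of lysine 20 of H4, with a summit 69 bp upstream of its start, signal 1687 and rank 45, and with replicate ranks of 75, 46 and 34. Hmt4-20, which adds further methyl groups to the same residue, had signal 735 and rank 258. E(z), the methyltransferase of the Polycomb complex, had signal 666 and rank 321, and nej, the fly CBP acetyltransferase, signal 526 and rank 508. Filtered by recurrence in both remaining replicates, 8 genes were left without replicate 2 and 9 without replicate 3, beside 11 without replicate 1. The share of all protein-coding genes was then 11.8%, 12.6% and 12.7%. Counted by the nearest start only, 10 genes were left, against 12.4% of protein-coding genes. The count of 14 includes ball, through the peak that it shares with His2Av. His4r, the strongest variant gene, ranked below these 4 enzymes in each replicate.

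Several genes had replicate ranks close to those of a member, by the distance between their log2 ranks in the 3 replicates, over 6003 protein-coding genes with an entry in each. Genes that share the member's own entries (ball, CG14036 and put) were set aside. Nearest to His4r were Sox102F (distance 0.15), a transcription factor gene, and Septin2 and Srp72, which share an entry (0.18). Nearest to His3.3A were Abca3 (0.17), CG42855 (0.19) and Adss (0.19), and nearest to His2Av were Rm62, an RNA helicase gene (0.20), and Isha and hng1, which share an entry (0.20). Caper and Rab30, which share an entry, were nearest to His3.3B (0.06) and yet had no IDR summit within 1 kb, and Rab23 followed (0.13). Close ranks in the replicates thus went with different IDR calls at the strength of His3.3B. The ranks are those of the strongest entry within 1 kb in each replicate, and these entries need not be at 1 site. The IDR peaks are the 3314 strongest pooled entries, so Caper and Rab30 had no pooled entry of that strength within 1 kb.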

How the data were processed

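The deposited files are peak lists on build dm6. Per the labels, chromatin was sonicated to 200 to 800 bp. Per the notes on file origin that the authors deposited, each replicate's candidates were called from its own alignments, and the pooled candidates from all 3 replicates, against 1 shared control alignment that is not analysed here. The labels' free text speaks of an input control while assay and notes describe a ChIP, and the samples were treated as ChIP. Aligner and peak caller: not given in the sources used here. Each entry has a signal as deposited by the authors (scale unstated, used as ranks within a list) and a q-value that the authors deposited as −log10, which was not used for calls. Depth is unknown, and the interval on a share covers counting error over genes only.

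Computed here with python 3.11.15, numpy 2.4.6, pandas 2.3.3, scipy 1.17.1 and biopython 1.88 were summits within 1 kb of any transcript start of a gene (Ensembl release 115, transposable elements left out) and in its body. The counting around starts, but not that in gene bodies, was checked on simulated data. RefSeq held 13973 of the coding genes under the same symbol, and 99.9% of these, with all 5 members, had equal coordinates. Head to head means divergent starts within 500 bp. Sequence at the BigH1 promoter is not reported here. Protein identities come from translated annotated coding sequence. The genes, lists and words were chosen with earlier results of these data known. Named genes were the 5 members, up to 4 bound genes of highest signal in each list (Tip60 and Daxx were added after their values were seen, and Su(var)3-9 for the peak it shares with Set), the 3 genes nearest in rank to each bound member and any gene with a start within 1 kb of a member summit, and genes that flank a member were named for their position. The symbols PR-Set7, lid and haspin were matched as Set8, Kdm5 and Haspin. Alternatives were other windows, starts, peak subsets and replicates.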

Additional observations from a re-analysis of the deposited data

How the results depend on the processing

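The 4 members with an IDR summit remained 4 with windows of 500 and 2000 bp and with the gene body added, and were 3 with 250 bp, with the 5′ end only, with an interval over the start (His3.3B lost in each), or with the nearest start only (His2Av lost to ball). With the IDR peaks above the median signal 1 was left (His4r), and with peaks found in all 3 replicates 2 (His3.3A and His4r), as without replicate 2 or without replicate 3, so the range with 1 replicate left out was 2 to 4. Under the same settings the share of protein-coding genes was 11.9% at 250 bp, 14.8% at 500 bp, 21.4% at 2000 bp, 15.5% with 5′ ends only, 20% with the body, 9.82% with intervals over a start, 9.26% with peaks above the median, 10.9% with peaks in all 3 replicates, 12.4% with the nearest start only and 11.8 to 12.7% with 1 replicate left out. Leaving out a replicate only filtered the deposited IDR list. Chaperone genes went from 5 to 2 with peaks above the median and to 3 with peaks in all 3 replicates or the nearest start only, and ranged from 3 to 5 with 1 replicate left out. Enzyme genes went from 14 to 8 with intervals over a start, 7 with peaks above the median, 7 with peaks in all 3 replicates and 10 with the nearest start only. They ranged from 8 to 11 with 1 replicate left out. The histone locus body list went from 1 to 0 with the nearest start only. Replicate recurrence of the 4 peaks, among 0.5 times as many entries, was 1, 1 and 2 in replicates 1, 2 and 3, and among all entries 4 in each. The cause was not tested where a value moved, beyond the fewer peaks or starts that these settings admit by construction. No paired analysis was possible because there is 1 group. Read depth is unknown, the sources do not state the IDR threshold, and entries weaker than the last of a list cannot be seen.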
